A study of Mus musculus with 19 samples.

Results

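Vcam1, Icam1 and 8 integrin subunits (Itgam, Itgax, Itgal, Itga4, Itga6, Itga9, Itgb1 and Itgb2) were followed in Kupffer cells (KCs), the resident macrophages of the liver sinusoid. These 10 genes were chosen by name, each was measured by 1 probeset that carried only its symbol, and all 10 were found among the 19938 genes tested. The study asked how closely KCs that arise from monocytes resemble embryonic KCs. Total RNA of KCs sorted from the livers of mice 6 to 12 weeks old was hybridised to Affymetrix Mouse Gene 1.0 ST arrays, 1 array per sample and 19 in all.

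In KC-DTR mice the human diphtheria toxin (DT) receptor is expressed from the Clec4f gene, so that DT removes the cells that express Clec4f, and monocytes then refill the niche. Monocyte-derived KCs (mo-KCs) came from KC-DTR mice given 50 ng DT and were taken at day 15 (3 arrays) or day 30 (5 arrays). Embryonic KCs (em-KCs) were on 11 arrays, from untreated KC-DTR mice (3 arrays), from littermates without the receptor that were untreated (1 array) or 15 or 30 days after DT (2 arrays each), and from WT mice (3 arrays). The sort gate took CD45+ cells that carried F4/80 and Clec4F with an intermediate level of CD11b, the protein of Itgam, and left out cells with Ly6C, Ly6G or SiglecF. CD45 is absent from endothelial cells, and Ly6C marks classical monocytes. The mo-KCs were thus defined by the depletion and the day and were not traced by a lineage marker on these arrays. Per the labels, arrays of the same group are biological replicates.

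Integrins are adhesion receptors made of an alpha and a beta subunit. Itgal, Itgam and Itgax (CD11a, CD11b and CD11c) pair with Itgb2 (CD18) in leukocytes, where they bind Icam1 or fragments of complement. Itga4 and Itga9 pair with Itgb1 and bind Vcam1 and matrix proteins, and Itga6 pairs with Itgb1 to bind laminin. Vcam1 and Icam1 are immunoglobulin-family surface proteins of activated endothelium that are also made by macrophages, and they hold passing leukocytes.

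KC markers were high on all arrays, and some were lower in mo-KCs. The mean log2 level of 12 KC markers lay between 12.02 and 12.18 in em-KCs, between 11.48 and 11.66 in day 15 mo-KCs and between 11.46 and 11.76 in day 30 mo-KCs. At day 30, 3 of the 12 passed as lower (limma), 9 had an unadjusted p under 0.05 and all 9 were lower. Timd4, a phosphatidylserine receptor, was 11.90 ± 0.10 (SD, n = 11) in em-KCs, 8.16 ± 0.25 (SD, n = 3) at day 15 and 9.62 ± 0.18 (SD, n = 5) at day 30. Clec4f, the gene of the sort and the depletion, was 12.51 ± 0.15, 12.18 ± 0.03 and 11.25 ± 0.62 in the same groups, and 10.90 ± 0.23 (SD, n = 3) in day 30 replicates 3 to 5. The part of these shifts in the member values was not tested. Transcripts of liver sinusoidal endothelial cells (LSECs) were on every array, and the mean level of 28 LSEC and endothelial genes lay between 8.47 and 9.52 in em-KCs, between 8.96 and 9.24 at day 15 and between 8.63 and 9.28 at day 30. Low Y-linked genes marked 6 arrays, the 3 of WT em-KCs and replicates 3 to 5 of day 30 mo-KCs. Their mean Y-linked level was 3.97 to 4.18, against 7.33 to 7.83 on the other 13 arrays, a split that the labels do not describe. The study used mice of both sexes, and the labels do not give the sex of each sample. The day 30 differences of the members are therefore also given inside each set. All 3 WT em-KC arrays were in one set and the 8 other em-KC arrays in the other, so their comparison has no value within a set. Immediate-early genes, which respond to cell handling, moved with the same split, since WT em-KCs had a mean level of 7.78 ± 0.09 (SD, n = 3) and the other em-KCs 9.11 ± 0.23 (SD, n = 8). At day 30, replicates 3 to 5 had 7.80 ± 0.25 (SD, n = 3) and replicates 1 and 2 had 9.33 ± 0.23 (SD). Day 15 mo-KCs had 9.39 ± 0.19 (SD, n = 3). All 24 immediate-early genes measured were above em-KCs at day 15, with a median difference of 0.69, and none passed. The part of these genes in the member values was not tested beyond the covariate fits given below for Vcam1, Itgax and Itga4.

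Vcam1 was lower in day 30 mo-KCs than in em-KCs. On the log2 scale its level in em-KCs had a lowest value of 10.24, a median of 10.75 and a highest of 11.20. The 5 day 30 arrays had 9.99, 10.12, 9.96, 10.13 and 9.72, and the 3 day 15 arrays had 10.36, 10.05 and 10.40. Every day 30 array thus lay below every em-KC array, which held for 0.376% of all genes, while the day 15 arrays overlapped with em-KCs through KC-DTR untreated replicate 1. The mean was 10.80 ± 0.29 (SD, n = 11) in em-KCs, 10.27 ± 0.19 (SD, n = 3) at day 15 and 9.99 ± 0.17 (SD, n = 5) at day 30.

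The fall of Vcam1 at day 30 was 1.76-fold, a log2 difference of -0.82 (standard error 0.13, 95% confidence interval -1.08 to -0.55, adjusted p = 0.00140 from limma over all genes). At day 15 the difference was -0.54 (interval -0.86 to -0.21) and missed the threshold (limma adjusted p = 0.209). Mo-KCs of both days together were 1.60-fold below em-KCs (difference -0.68, standard error 0.11, adjusted p = 0.00140 from limma). Between the days Vcam1 differed by -0.28 (interval -0.64 to 0.08, adjusted p = 0.920 from limma). In a bulk sample, less RNA per cell cannot be told apart from fewer cells that carry the transcript.

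The direction of the Vcam1 difference was the same within both sets of arrays, but the call was not. Among the 13 arrays with high Y-linked genes the 2 day 30 arrays (10.06 ± 0.09, SD) stood against 8 em-KC arrays (10.73 ± 0.31, SD), a difference of -0.67 that missed the threshold (limma adjusted p = 0.255). Among the 6 arrays with low Y-linked genes the 3 day 30 arrays (9.94 ± 0.21, SD) stood against 3 WT em-KC arrays (10.94 to 11.06), a difference of -1.06 that passed (adjusted p = 0.00895 from limma). With the set of arrays as a block the difference was -0.86 (adjusted p = 8.43e-04 from limma). For both days together the difference was -0.57 within the 13 arrays and did not reach the threshold (limma adjusted p = 0.0560).

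Vcam1 is also an endothelial gene, and endothelial transcripts, which were present although the gate required CD45, were therefore set beside it. None of the 28 LSEC and endothelial genes passed at day 30 (limma), and 3 had an unadjusted p under 0.05, 1 higher and 2 lower. The median difference of the list was -0.10, with 9 of 28 genes above 0. In em-KCs, Cdh5, the junction protein of endothelium, was at 11.95 ± 0.12 (SD, n = 11), against 11.63 ± 0.31 (SD, n = 5) at day 30. Stab2, a scavenger receptor of LSECs, was at 10.27 ± 0.26 and 9.83 ± 0.52, and in day 30 replicates 3 to 5 at 9.47 ± 0.21 (SD, n = 3). Clec4g, another LSEC marker, was at 11.69 ± 0.34 in em-KCs and 11.83 ± 0.17 at day 30. With the mean LSEC level as a covariate Vcam1 differed by -0.84 at day 30 (limma adjusted p = 0.00123), and with the mean hepatocyte level by -0.77 (limma adjusted p = 0.00182). With the mean immediate-early level it was -0.83 (limma adjusted p = 0.00141).

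**Figure D1:**
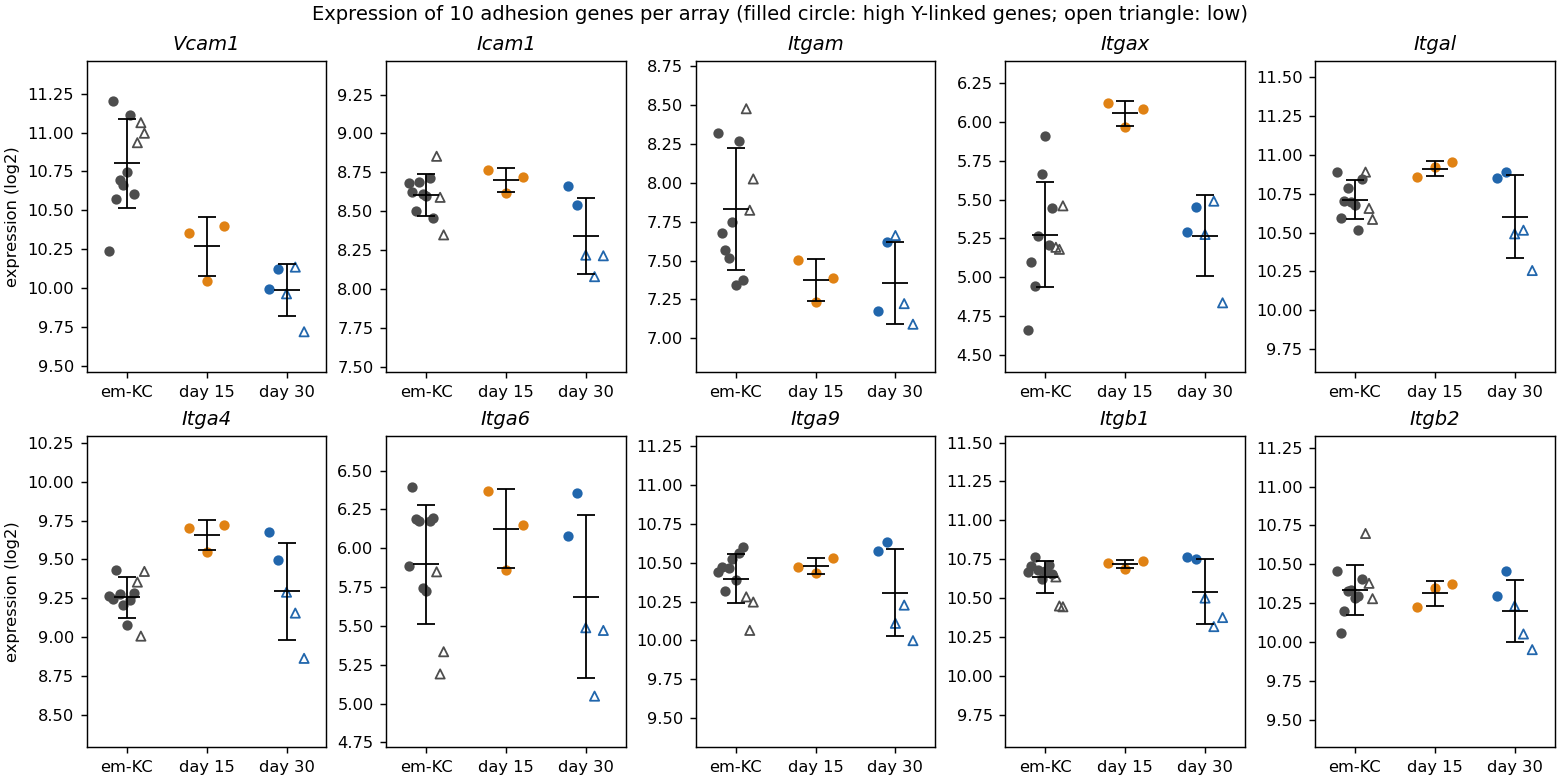
Log2 expression of the 10 adhesion genes, 1 panel per gene with 1 point per array, in em-KCs (11 arrays) and mo-KCs at day 15 (3 arrays) and day 30 (5 arrays). Bars are mean ± SD, all panels span the same range of log2 units around a centre of their own, and open triangles mark the 6 arrays with low Y-linked genes. The day 30 arrays of Vcam1 lie between 9.72 and 10.13, below all em-KC arrays, and the day 15 arrays of Itgax lie between 5.97 and 6.12, above all em-KC arrays.

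Vcam1 was the 1 member of 10 that passed the threshold at day 30, where 0.787% of all genes passed and 0.492% were lower. It was also the 1 member that passed in mo-KCs of both days, where 1.19% of genes passed and 0.742% were lower. No member passed at day 15 (0.502% of genes) or between the days (0.0201%). At an unadjusted p under 0.05 there were 3 of 10 members at day 30 (2582 of 19938 genes) and 4 of 10 at day 15 (1206 of 19938). Between the days there were 4 of 10 (Icam1, Itgax, Itgal and Itga4), all lower at day 30, against 1012 of 19938 genes. Of the 10 members 0 had a difference above 0 between the days, against 9949 of 19938 genes. The median difference of the members was -0.13 at day 30 and 0.09 at day 15, against -0.02 and -0.01 for all genes.

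The other members were close to em-KCs or were not resolved. At day 30, 7 of 10 members had a 95% confidence interval that excluded a change of 1.5-fold in either direction, against 91.1% of all genes. At day 15 this held for 5 of 10 members and 87.8% of all genes. Arrays of 1 condition did not vary alike for all members. The pooled SD within conditions was lowest for Itgb1 (0.132) and highest for Itga6 (0.365) and Itgam (0.337), with a median of 0.179 over all genes.

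The day 30 values of most members differed by array set. Among the 13 arrays with high Y-linked genes 7 of 10 members were above em-KCs and 3 below, while within the other 6 arrays all 10 were below WT em-KCs. Itgal was 0.16 above em-KCs in the first set and differed by -0.29 in the second, Itgb2 by 0.08 and -0.37, Itgb1 by 0.07 and -0.11, Itga9 by 0.13 and -0.09, and Itga6 by 0.16 and -0.12. Vcam1, Icam1 and Itgam were the 3 members below em-KCs in both sets, Icam1 by only -0.01 in the first. These signs were not counted over all genes, so a trait of the members cannot be told apart from a general shift between the sets. The change of sign between the sets was not tested, and day 30 values over all 5 arrays average over it.

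**Figure D2:**
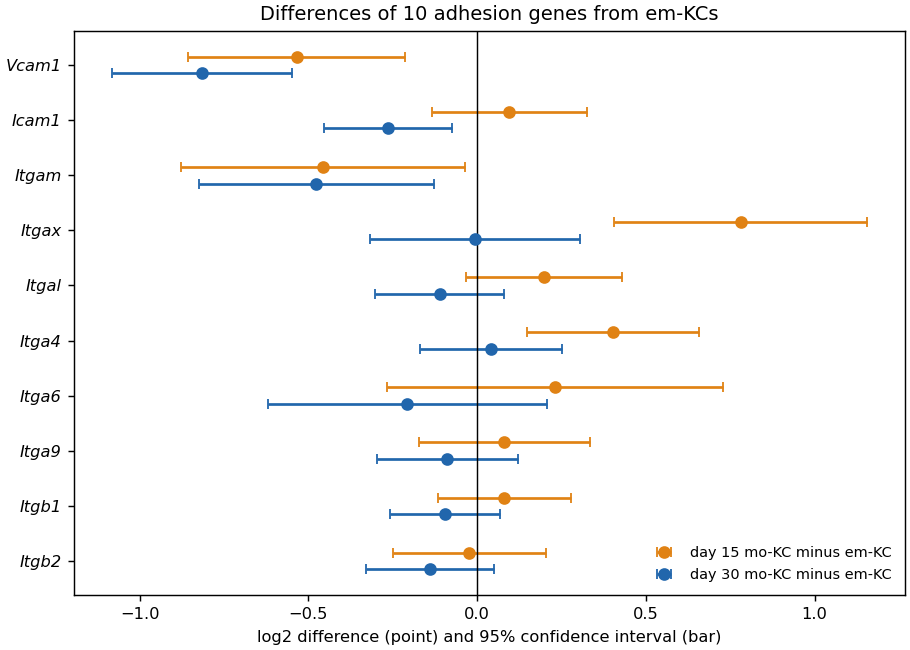
Log2 difference from em-KCs (points) with its 95% confidence interval (bars) for the 10 genes in mo-KCs at day 15 (orange) and day 30 (blue), from the limma fit of 3 classes. Vcam1 lies at -0.54 and -0.82, Itgax at 0.78 and -0.01, and the intervals of Itgb1 and Itgb2 hold 0 at both days.

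Icam1, the ligand of the CD18 integrins, passed at neither day. Its em-KC levels had a lowest value of 8.35, a median of 8.61 and a highest of 8.85, the day 15 arrays had 8.76, 8.62 and 8.72, and the day 30 arrays had 8.66, 8.54, 8.21, 8.08 and 8.22. Day 30 replicates 3 to 5 lay below all em-KCs and replicates 1 and 2 among them. The day 30 difference was -0.26 (interval -0.45 to -0.07, adjusted p = 0.209 from limma) and was -0.01 among the 13 arrays with high Y-linked genes and -0.43 (limma adjusted p = 0.150) among the other 6. At day 15 the difference was 0.10 (interval -0.13 to 0.32).

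Itgam, the alpha subunit of complement receptor 3, was low in both mo-KC groups without passing the threshold. Its em-KC levels had a lowest value of 7.34, a median of 7.75 and a highest of 8.48. The day 15 arrays had 7.50, 7.23 and 7.39 and the day 30 arrays 7.18, 7.62, 7.66, 7.22 and 7.09, so that 1 array at day 15 and 3 at day 30 lay below all em-KCs. The differences were -0.46 at day 15 (interval -0.88 to -0.04, adjusted p = 0.750 from limma) and -0.48 at day 30 (interval -0.83 to -0.13, adjusted p = 0.220 from limma). Within the array sets the day 30 difference was -0.33 (limma adjusted p = 0.877) with high and -0.78 (limma adjusted p = 0.0733) with low Y-linked genes. The CD11b gate of the sort bears on the Itgam level, and its part in the difference was not tested.

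Itgax, which encodes CD11c, stood above em-KCs at day 15 and not at day 30. Its signal was low, with 37.1% of genes at a lower mean. The means of em-KCs (5.27) and of day 30 mo-KCs (5.27) lay below the array medians of 5.72 to 5.81. Its em-KC levels had a lowest value of 4.66, a median of 5.21 and a highest of 5.91. The day 15 arrays had 6.12, 5.97 and 6.08 and lay above all em-KC arrays, as 0.752% of all genes did. The day 30 arrays had 5.29, 5.45, 5.28, 5.49 and 4.84 and lay within the em-KC range.

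The Itgax difference at day 15 was 0.78 (standard error 0.18, interval 0.41 to 1.16, adjusted p = 0.0533 from limma), just outside the threshold. It passed in the fit of all 7 conditions (difference 0.74, adjusted p = 0.00596 from limma), and also when KC-DTR untreated replicate 1, either littermate of day 15 or day 30 mo-KC replicate 5 was left out (limma adjusted p of 0.0106 to 0.0452). In 24 of 33 alternatives it did not pass, among them the methods' t-test (adjusted p = 0.245 after Benjamini-Hochberg), a fit whose em-KCs came from the KC-DTR colony alone (limma adjusted p = 0.0858) and the omission of day 15 replicate 1 (limma adjusted p = 0.328). With the mean immediate-early level as a covariate it was 0.74 and did not pass (limma adjusted p = 0.0930). The em-KCs nearest to the day 15 mo-KCs were those of littermates 15 days after DT, with 5.66 and 5.91, while untreated KC-DTR em-KCs had 4.66, 5.10 and 4.94. Against the littermates of the same day the difference was 0.27 (interval -0.10 to 0.64), with an adjusted p of 1 from limma. At day 30 Itgax differed from em-KCs by -0.01 (interval -0.32 to 0.30), and between the days by -0.79 (interval -1.21 to -0.37, adjusted p = 0.633 from limma).

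**Figure D3:**
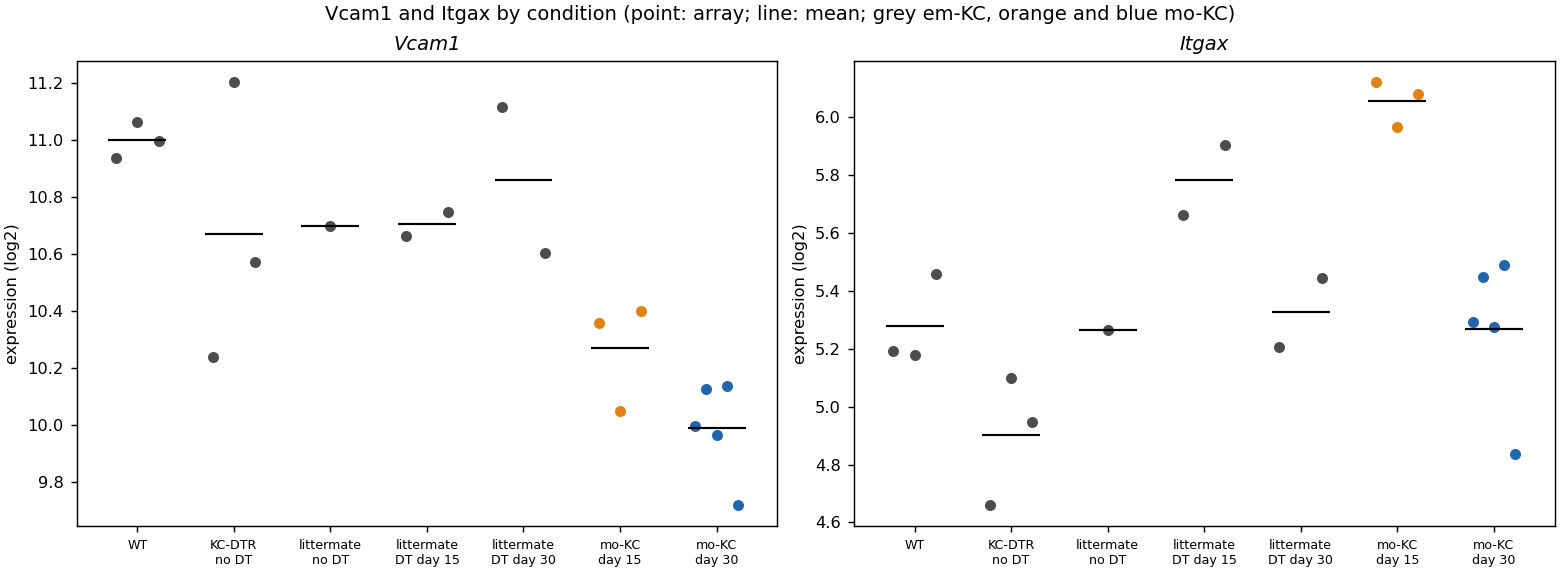
Log2 expression of Vcam1 and Itgax in the 5 em-KC conditions (grey) and in mo-KCs at day 15 (orange) and day 30 (blue), 1 point per array with the condition mean as a line. Vcam1 lies at 10.94 to 11.06 in WT em-KCs, and its mean is 10.27 in day 15 and 9.99 in day 30 mo-KCs. The day 15 arrays overlap with untreated KC-DTR em-KCs. Itgax has its highest mean in day 15 mo-KCs (6.06), followed by littermates 15 days after DT (5.78).

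Of 11 measured monocyte genes, 2 passed as higher at day 15 and 2 at day 30 (limma). At day 15, 6 of the 11 had a difference above 0, the median was 0.06, and 4 were higher and 2 lower at an unadjusted p under 0.05. Those that passed at day 15 were Ccr2 and Cx3cr1. Ccr2, the chemokine receptor of classical monocytes, was 5.58 ± 0.36 (SD, n = 11) in em-KCs, 8.48 ± 0.30 (SD, n = 3) at day 15 and 6.19 ± 0.40 (SD, n = 5) at day 30. Cx3cr1, the fractalkine receptor, was 7.26 ± 0.45, 9.68 ± 0.39 and 8.41 ± 0.32 in the same groups. The mean level of the 11 genes lay between 6.74 and 7.48 in em-KCs, between 7.33 and 7.53 at day 15 and between 6.96 and 7.43 at day 30, and the part of monocyte transcripts in the Itgax values was not tested.

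Itgal, the alpha subunit of LFA-1, and its partner Itgb2 passed at neither day. Itgal was 10.71 ± 0.13 (SD, n = 11) in em-KCs, 10.91 ± 0.05 (SD, n = 3) at day 15 and 10.60 ± 0.27 (SD, n = 5) at day 30. The differences of 0.20 at day 15 and -0.11 at day 30 did not pass. Itgb2, which it shares with Itgam and Itgax, was 10.34 ± 0.16, 10.31 ± 0.08 and 10.20 ± 0.20 in the same groups, with intervals of the difference of -0.25 to 0.21 at day 15 and -0.33 to 0.05 at day 30.

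Itga4, whose protein pairs with Itgb1 as a receptor for Vcam1, was high at day 15 without passing the threshold. Its em-KC levels had a lowest value of 9.01, a median of 9.26 and a highest of 9.43. The day 15 arrays had 9.70, 9.55 and 9.72, above all em-KC arrays, as 0.752% of all genes were. The day 30 arrays had 9.67, 9.49, 9.29, 9.15 and 8.86. Replicates 1 and 2 at day 30 thus also lay above all em-KCs and replicate 5 lay below them. The difference at day 15 was 0.40 (interval 0.15 to 0.66) (limma adjusted p = 0.259), and it passed among the 13 arrays with high Y-linked genes alone (0.41, limma adjusted p = 0.0146). In 32 of 33 alternatives it did not pass. With the mean hepatocyte level as a covariate it was 0.30 (limma adjusted p = 0.576). With the mean immediate-early level it was 0.32 (limma adjusted p = 0.506). Within the 13 arrays mo-KCs of both days were higher by 0.37 (adjusted p = 0.00819 from limma), against 0.22 (adjusted p = 0.353 from limma) over all arrays.

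The remaining partners showed no difference past the threshold. Itga9 was 10.40 ± 0.16 (SD, n = 11) in em-KCs, 10.48 ± 0.05 (SD, n = 3) at day 15 and 10.31 ± 0.28 (SD, n = 5) at day 30. Itgb1, the common beta subunit, was 10.64 ± 0.10, 10.72 ± 0.03 and 10.54 ± 0.21, and its intervals of -0.12 to 0.28 at day 15 and -0.26 to 0.07 at day 30 were the narrowest of the 10. Itga6 was 5.90 ± 0.38, 6.13 ± 0.25 and 5.69 ± 0.52, with an interval of -0.27 to 0.73 at day 15 that does not exclude a change of 1.5-fold.

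Against littermates of the same day after DT, 0 of 10 members passed at day 30 (0.135% of genes) and 0 of 10 at day 15 (0.221% of genes). At an unadjusted p under 0.05 there was 1 member of 10 at each day, against 7.06% of all genes at day 30 and 3.79% at day 15. These members were Vcam1 at day 30 and Itga4 at day 15 (difference 0.52, interval 0.13 to 0.90, limma adjusted p = 0.809). Vcam1 stood below those littermates, with a difference of -0.87 at day 30 (interval -1.29 to -0.46, limma adjusted p = 0.131) and -0.44 at day 15 (interval -0.89 to 0.02, limma adjusted p = 1). The littermate arrays had 11.11 and 10.60 at day 30 and 10.66 and 10.75 at day 15. Without KC-DTR untreated replicate 2, which enters the shared spread, the day 30 value passed (limma adjusted p = 0.0250). The change of this difference from day 15 to day 30 was -0.43 for Vcam1 (standard error 0.29, adjusted p = 1.00 from limma), and no member passed this test of the change.

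Among em-KCs, no member passed between WT mice and the mean of the other em-KC conditions (8 arrays), a comparison in which 16.5% of all genes passed. At an unadjusted p under 0.05 there were 2 of 10 members, against 31.5% of all genes. Itga6 was the member nearest to the threshold, at 5.85, 5.19 and 5.33 in WT em-KCs (difference -0.60, interval -1.07 to -0.14, adjusted p = 0.0680 from limma), and it passed without WT replicate 1 (difference -0.80, limma adjusted p = 0.0393) or without day 30 mo-KC replicates 2 or 4. Vcam1 differed by 0.27 (interval -0.08 to 0.61, adjusted p = 0.281 from limma). The WT arrays also had higher hepatocyte transcripts, with 21 of 24 genes passing, and lower immediate-early genes, with 15 of 24 passing, so WT mice, this set of arrays and those transcripts cannot be told apart. Between untreated KC-DTR em-KCs and littermate em-KCs no member and no gene passed (0%). Itgax had the lowest unadjusted p of the 10 members there, with a difference of -0.56 (interval -0.86 to -0.25, adjusted p = 1.00 from limma).

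The other genes of adhesion were measured on the same arrays, in lists of 18 other integrin subunits, 28 immunoglobulin-family and selectin molecules, 30 ligands in matrix, plasma and complement and 38 genes of integrin activation and linkage to actin. Of these 114 genes, none passed at day 15 or at day 30 (limma). At an unadjusted p under 0.05 there were 1, 1, 7 and 1 genes of the 4 lists at day 15 and 1, 3, 2 and 8 at day 30, against 6.05% and 13% of all genes. Their median difference was -0.01 at day 15 and -0.06 at day 30. None of 15 feedback targets of NF-kB, the factor that induces Vcam1 and Icam1 in endothelium, passed at either day. At day 15, 14 of the 15 were above em-KCs, with a median difference of 0.19, against 9151 of 19938 genes. At day 30, 5 of the 15 were above, with a median of -0.075, against 8972 of 19938 genes. An unadjusted p under 0.05 was found for 3 at day 15 and 1 at day 30, all higher. Among the ligands the fibrinogen chain Fgb, a product of hepatocytes, did not pass at day 15 (limma adjusted p = 0.682), with 7.57 ± 0.21 (SD, n = 3) against 8.81 ± 0.97 (SD, n = 11) for em-KCs, of which the WT arrays had a mean of 10.25 and the other 8 a mean of 8.27. At day 15, 13 of 24 hepatocyte genes were lower at an unadjusted p under 0.05, and none passed.

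Itgb7, the other beta subunit that pairs with Itga4, was the 1 gene of the 114 that passed in mo-KCs of both days. In that comparison 1.19% of all genes passed and 0.446% were higher, so 1 of 114 is no excess over all genes. It was 6.71 ± 0.51 (SD, n = 11) in em-KCs, 7.79 ± 0.16 (SD, n = 3) at day 15 and 7.36 ± 0.31 (SD, n = 5) at day 30. The difference was 0.87 for both days (standard error 0.19, adjusted p = 0.0173 from limma), 1.08 at day 15 (adjusted p = 0.0600 from limma) and 0.65 at day 30 (adjusted p = 0.179 from limma). The day 15 arrays (7.61, 7.83 and 7.92) lay above all em-KC arrays, whose highest was 7.38, as 0.752% of all genes did. The day 30 arrays (6.99 to 7.85) overlapped with em-KCs. Among the 13 arrays with high Y-linked genes the difference for both days was 0.76 (limma adjusted p = 0.0799).

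**Figure D4:**
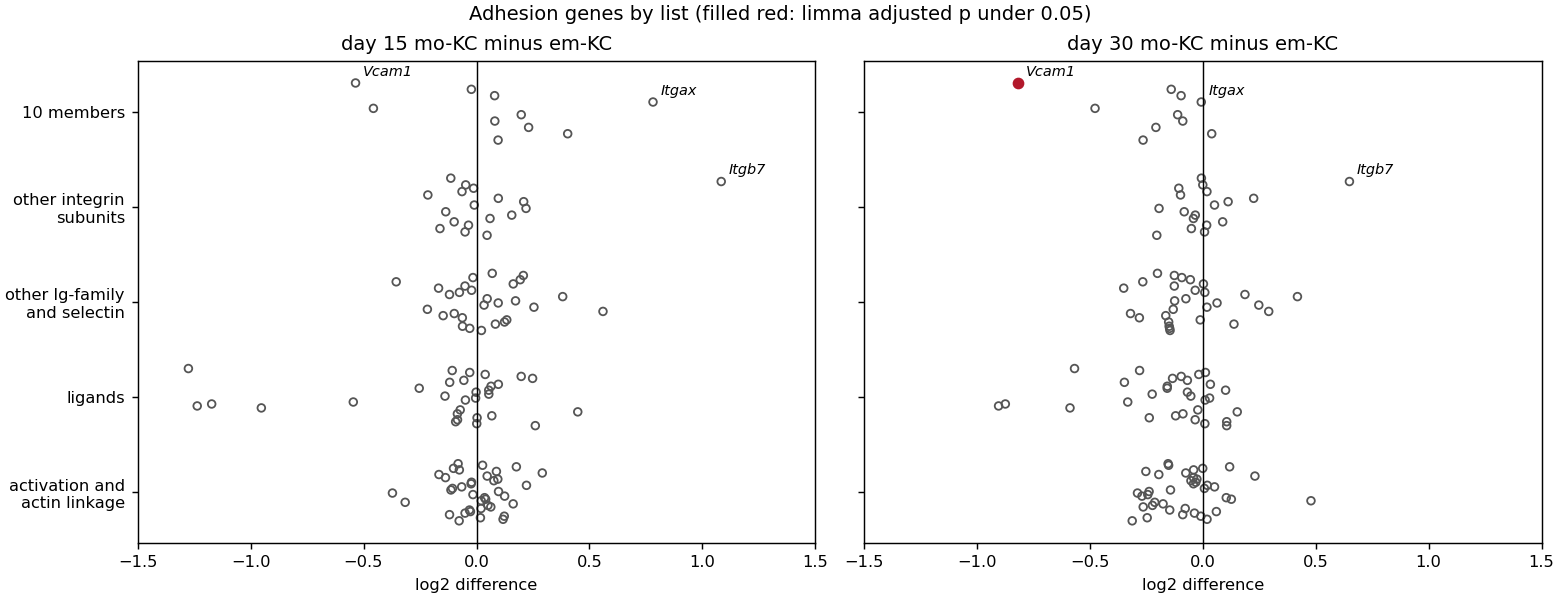
Log2 difference from em-KCs of the 10 genes and of 114 other adhesion genes in 4 lists, at day 15 (left) and day 30 (right), with 1 point per gene. Filled points passed an adjusted p under 0.05, which only Vcam1 at day 30 did, and Itgb7 lies at 1.08 and 0.65.

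The genes whose levels were most like those of Vcam1 over the 19 arrays were Hmox1 (Pearson r = 0.883), Lipa (r = 0.874) and Fblim1 (r = 0.872). Hmox1 encodes a heme-degrading enzyme, Lipa the lysosomal acid lipase and Fblim1 an adaptor of cell-matrix junctions. Over the 13 arrays with high Y-linked genes r was 0.854, 0.821 and 0.765. These values describe arrays that share their normalization and the same classes, and they carry no test. Their day 30 differences from em-KCs were -0.47 for Hmox1, -0.42 for Fblim1 and -0.31 for Lipa, a direction that the choice by likeness to Vcam1 on these arrays builds in.

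The order of the Vcam1 means ran from WT em-KCs (arrays at 10.94 to 11.06) through littermates at day 30 (10.86) and day 15 (10.71) after DT, the untreated littermate (10.70) and untreated KC-DTR em-KCs (10.67) to mo-KCs at day 15 (10.27) and day 30 (9.99). The ranges of all neighbours in this order overlapped. For Itgax the order opened with mo-KCs at day 15 (6.06), littermates 15 days after DT (5.78) and littermates 30 days after DT (5.33), whose ranges did not overlap, and ended with untreated KC-DTR em-KCs (4.90).

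**Figure D5:**
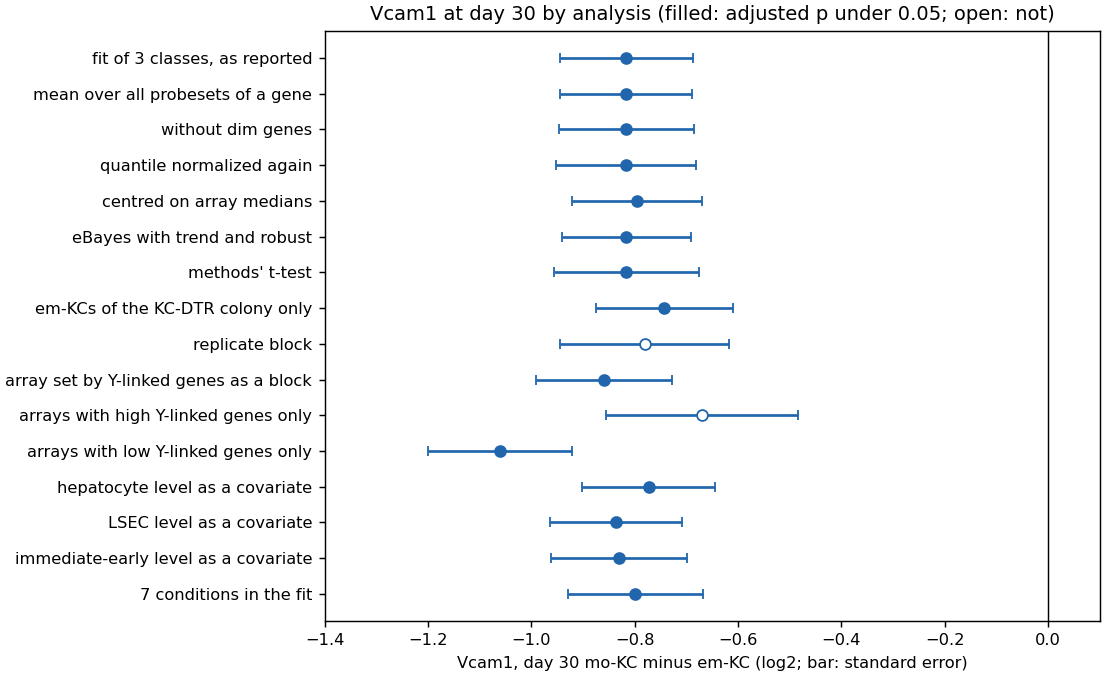
Vcam1 log2 difference between day 30 mo-KCs and em-KCs (points) with its standard error (bars) in the reported fit and in 15 other analyses that kept all arrays or a named set of arrays. All values lie between -1.06 and -0.67, and the open points are the analyses in which the adjusted p did not pass.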

How the data were processed

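The authors deposited log2 values, 1 per probeset, after Robust Multi-array Average (RMA), which corrects the background and quantile-normalizes the arrays. Software versions and the genome build were not given in the sources used here. Of 35556 probesets, 21789 had 1 gene symbol in the platform annotation, 1621 had several and 12146 had none. Only the first kind was used, and of several such probesets of a gene the brightest on average was taken, as in the study's methods. Probesets shared by Itgam and another gene were left out.

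A limma 3.58.1 model (lmFit, then eBayes, in R 4.3.3) held the 3 classes em-KC, mo-KC day 15 and mo-KC day 30, and comparisons within a day or among em-KCs came from a fit of all 7 conditions. Tests were two-sided, with Benjamini-Hochberg adjustment over 19938 genes and a threshold of 0.05. The comparisons with em-KCs share the same em-KC arrays. The fit of 3 classes was tested on simulated arrays, for day 30 and day 15 against em-KCs and without a split into array sets. The fit of 7 conditions was not tested in this way. The number of arrays limits the precision, with a median half-width of the 95% interval of 0.21 at day 30 and 0.25 at day 15 (log2). P-values measure the spread between these samples.

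Named genes are the 10 members, up to 4 called genes per adhesion list and comparison with em-KCs, the 3 genes most correlated with each called member, and defining markers of other cell types that moved with a result. Fgb, Cdh5, Stab2 and Clec4g were named after their values were seen. The members and lists were chosen with earlier results of these data known. Alternatives covered the probeset, dim genes, normalization, variance model, the methods' t-test, the em-KC arrays, replicate number, Y-linked set, hepatocyte, LSEC and immediate-early levels, and leaving out each array. Figures were drawn with matplotlib 3.10.9. No sequence of these genes is shown.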

Additional observations from a re-analysis of the deposited data

How the results depend on the processing

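The Vcam1 difference at day 30 kept its direction in all 34 alternatives and its call in 32 of them, 19 of which left out 1 array each (values of -0.87 to -0.75, adjusted p of 1.94e-04 to 0.00880 from limma). With the replicate number as a replicate block it was -0.78 (adjusted p = 0.0636 from limma), and 0 members and 49 genes passed in place of 1 and 157. Replicates 4 and 5 exist only in day 30 mo-KCs, so with this block those arrays add nothing to the difference. Same-numbered arrays did not deviate together (correlations of -0.12 to 0.15 over 23 pairs, against -0.16 to 0.14 over 72 other pairs). With only the arrays of high Y-linked genes, 0 members passed at day 30. In the same alternative Vcam1 for both days was -0.57 (adjusted p = 0.0560 from limma), the only one of 33 in which it did not pass. At day 15, 1 member in place of 0 passed under a filter on dim genes, a second quantile normalization, centring on array medians, a variance trend with robust eBayes and the fit of 7 conditions (Itgax each time, adjusted p of 0.00596 to 0.0439), and within the arrays of high Y-linked genes (Itga4). Itgax met the filter on dim genes, a class mean above 6, only through its day 15 mean of 6.06. Its pass under that filter is therefore no support for the difference. Leaving out 1 array gave 0 to 1 members at day 15, with Itgax passing without KC-DTR untreated replicate 1, either littermate of day 15 or day 30 mo-KC replicate 5, and over all 33 alternatives it did not pass in 24 (adjusted p up to 0.328). It gave 0 to 1 members against littermates at day 30 (Vcam1 without KC-DTR untreated replicate 2, adjusted p = 0.0250) and 0 to 1 for WT em-KCs (Itga6 without day 30 mo-KC replicates 2 or 4 or WT replicate 1, adjusted p of 0.0348 to 0.0393). The Vcam1 difference between untreated KC-DTR and littermate em-KCs ran from -0.35 to 0.13 when 1 array was left out and changed sign without KC-DTR untreated replicate 1 (0.13) or littermate day 30 replicate 1 (0.00156). Itgb7 did not pass for both days in 6 of 33 alternatives, among them the replicate block (0.94, adjusted p = 0.0593), the methods' t-test and the omission of day 15 mo-KC replicates 2 or 3. The scaling alternatives moved the median of all genes by -0.0310 to 0.0326 (log2) over the 8 comparisons, and the causes of these differences were not tested.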

Other observations

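Between WT em-KCs and the other em-KC arrays, 25 of the 114 other adhesion genes passed the threshold, 15 higher and 10 lower in WT, where 16.5% of all genes passed. The genes in this paragraph were chosen after their values were seen. Those higher in WT em-KCs included plasma and matrix ligands, among them fibronectin (Fn1, difference 2.02, adjusted p = 2.63e-05 from limma), vitronectin (Vtn, 1.77, adjusted p = 2.10e-04 from limma) and the fibrinogen chain Fgb (2.00, adjusted p = 9.24e-04 from limma). Those lower included Cd47, a ligand of SIRP alpha on macrophages (-0.64, adjusted p = 2.06e-04 from limma), Vav1, an exchange factor downstream of integrins (-0.68, adjusted p = 2.79e-04 from limma), and Itgb7 (-0.77, adjusted p = 0.0258 from limma). Of 24 hepatocyte genes, 21 were higher in the same arrays and none was lower, with a mean level of 9.52 ± 0.06 (SD, n = 3) against 7.97 ± 0.27 (SD, n = 8). Of 24 immediate-early genes, 15 were lower and none was higher, with a median difference of -1.29. The WT mice, this set of arrays and these transcripts cannot be told apart.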
